A study of Mus musculus with 6 samples.

Results

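The 9 genes described here carry the signal of insulin from the surface of a fat cell to its uptake of glucose. They are Insr, Irs1, Irs2, Akt1, Akt2, Tbc1d4, Trarg1, Slc2a4 and Slc2a1. They were chosen by name, with earlier results of these data known, as 9 of the 53801 rows of a table of gene counts. All 9 passed the filter on low counts that left 14816 genes for testing. The libraries came from the stromal vascular fraction of mouse inguinal white fat, the mixed non-adipocyte cells among which fat cell progenitors lie, after 4 days of adipogenic induction in culture. There were 3 libraries from Ythdf1 knockout mice and 3 from wild-type mice, described in the series as biological replicates. The product of Ythdf1 is a reader of m6A, a methyl mark on RNA. The sources used here do not give the allele, sex, age, number of animals behind a library or content of the induction medium.

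In fat cells, insulin binds its receptor, a tyrosine kinase, which phosphorylates the docking proteins IRS1 and IRS2. These recruit phosphoinositide 3-kinase, whose lipid product brings the kinases AKT1 and AKT2 to the membrane. AKT then phosphorylates TBC1D4, a brake on the Rab proteins of storage vesicles, and vesicles holding the transporter GLUT4, the product of Slc2a4, move to the cell surface. GLUT1, the product of Slc2a1, stays largely at the surface and carries glucose without insulin. This pathway is controlled mostly by phosphorylation and by vesicle movement, neither of which RNA counts measure.

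Total counts were 17693082 to 20089138 in the knockout and 16619605 to 17700068 in the wild-type libraries. Values are CPM, counts scaled to a common library total, and ± is the SD with n = 3. A floor of 3 counts was at most 0.181 CPM, and every member was far above it in every library. The targeted gene, Ythdf1, was at 43.8 ± 1.15 CPM in knockout cultures and 61.8 ± 1.34 CPM in wild-type libraries, a log2 fold change of -0.50 ± 0.08 (SE), so much of its transcript was still counted in the libraries labelled knockout. Summed over 12 markers of mature fat cells, the libraries reached 17393 to 23461 CPM in knockout cultures and 3927 to 6064 CPM in wild-type cultures, so markers of differentiated fat cells were detected in both genotypes. Summed over 12 macrophage markers they reached 303 to 815 CPM in knockout cultures, with the highest value in replicate 3, and 96.8 to 174 CPM in wild-type cultures. In bulk RNA, a change in the share of a cell type and a change in RNA per cell cannot be told apart.

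The comparison asked how these transcripts differed between Ythdf1 knockout and wild-type cultures. Of the 9 genes, 7 were higher in knockout cultures, 1 was lower (Akt1) and 1 did not pass (Slc2a1). A gene passed at a Benjamini-Hochberg adjusted p below 0.05, over all genes tested, by the quasi-likelihood test of edgeR. By the same rule 22.6% of all tested genes were higher and 21.7% lower, so a call by itself is common in these data. The median log2 fold change, knockout over wild type, was 0.99 over the 9 members and 0.01 over all genes. Since the members were chosen with earlier results known, this contrast is a description and not a test of the pathway. Sizes ran from -0.41 for Akt1 to 3.55 for Slc2a4.

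**Figure D1:**
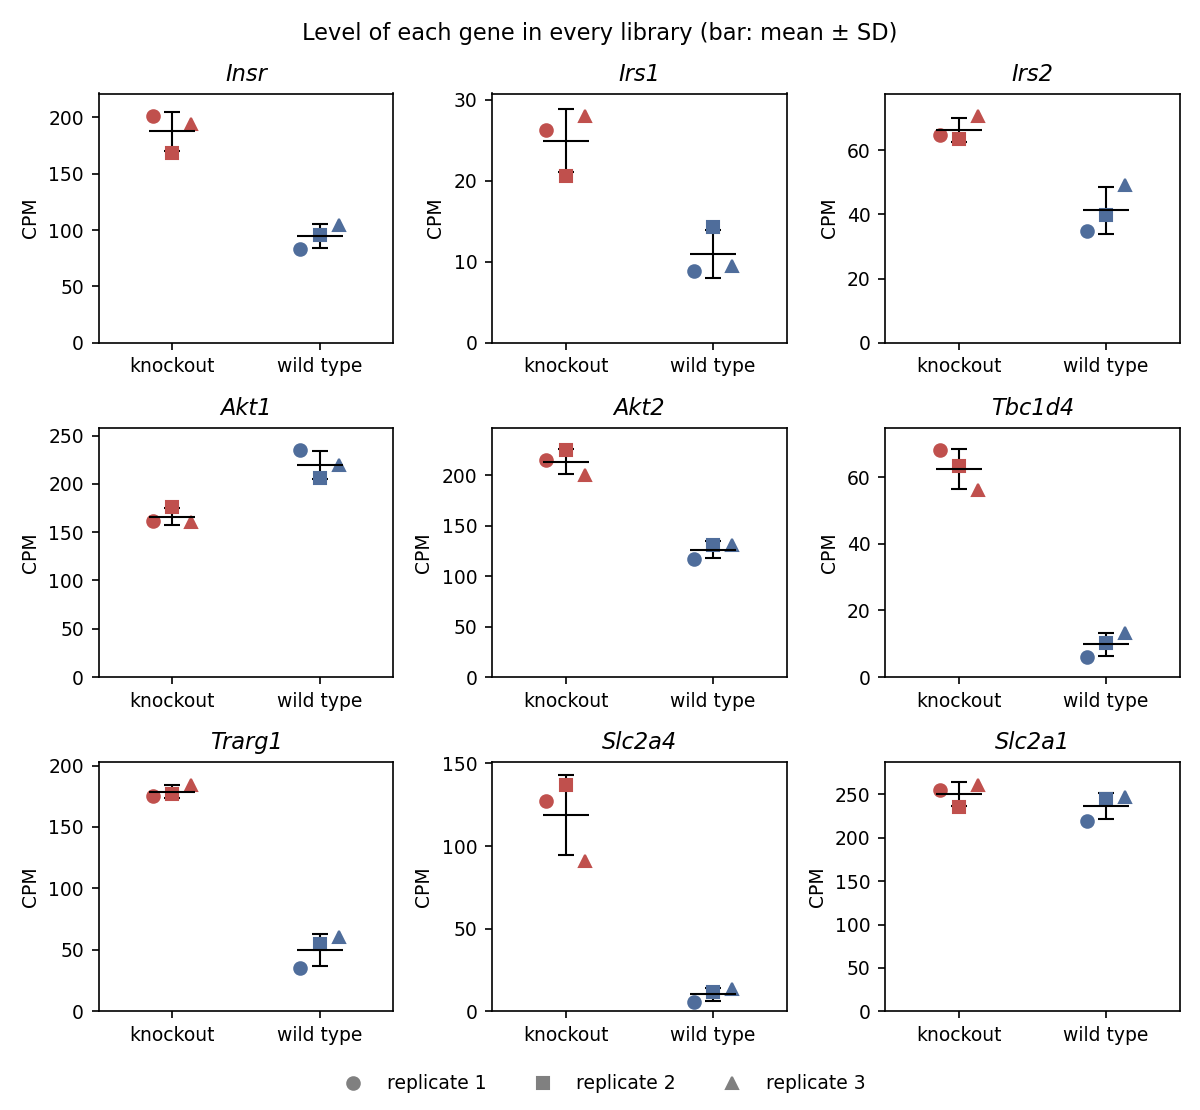
CPM of each of the 9 genes in every library, with knockout left of wild type in each panel, bars at mean ± SD and 1 marker shape per replicate number; each vertical axis starts at 0. The knockout points lie above the wild-type points in 7 panels, below them for Akt1, and among them for Slc2a1.

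The receptor and its docking proteins were all higher in knockout cultures. The insulin receptor gene Insr (ENSMUSG00000005534, GRCm38 chromosome 8, 3122061 to 3279617, minus strand) was at 201, 168 and 194 CPM in knockout replicates 1 to 3 and at 83.3, 95.7 and 105 CPM in wild-type replicates 1 to 3. The lowest knockout library was above the highest wild-type library. Its log2 fold change was 0.99 ± 0.11 (SE), with a 95% interval from 0.76 to 1.22 and an edgeR adjusted p of 2.2e-05.

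Irs1 (ENSMUSG00000055980, chromosome 1, 82233101 to 82291416, minus strand) had the lowest mean per kilobase of exon in both genotypes, although Tbc1d4 was lower in wild-type replicates 1 and 2. It was at 26.28, 20.63 and 27.97 CPM in knockout cultures and 8.88, 14.3 and 9.54 CPM in wild-type libraries, again without overlap. The log2 fold change was 1.20 ± 0.19 (SE), with an edgeR adjusted p of 0.000399. The annotation places a gene model on the opposite strand, Gm9747, over 30.9% of its exon bases, and that model had 0 counts in every library. The sources used here do not say whether counting used strand, and the effect of the overlap on Irs1 counts was not tested. Smaller overlaps with opposite-strand models cover 2.56% of the Irs2 and 2.99% of the Slc2a1 exon bases.

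Irs2 (ENSMUSG00000038894, chromosome 8, 10984681 to 11008458, minus strand) was at 64.6, 63.6 and 70.6 CPM in knockout cultures and 34.7, 39.9 and 49.2 CPM in wild-type libraries. All knockout values exceeded all wild-type values, by a log2 fold change of 0.68 ± 0.12 (SE) and an edgeR adjusted p of 0.000715. Per kilobase of exon, Irs2 was the more abundant substrate in every library. The ratio of Irs2 to Irs1 per kilobase was 3.56, 4.46 and 3.65 in knockout cultures and 5.66, 4.03 and 7.45 in wild-type libraries. These ranges overlapped, and the ratio did not separate the genotypes (exact 2-sided permutation test over 3 against 3 libraries, p = 0.2, adjusted p = 0.2 over the 3 pairs compared).

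The promoter windows of Irs1 and Irs2 are shown because both substrate genes rose and both windows hold the palindromic E-box CACGTG, a motif bound by several helix-loop-helix factors. The stretches below, from RefSeq on GRCm38.p6, run 5′ to 3′ on the minus strand of each gene, with the E-box in capitals. It starts 115 bases before the RefSeq start of Irs1 and 44 bases before that of Irs2. Both RefSeq starts lie upstream of the gene starts by the positions given above, 82291416 for Irs1 and 11008458 for Irs2. The distances to those starts are longer, more so for Irs2.
Irs1, chr1:82291519-82291584: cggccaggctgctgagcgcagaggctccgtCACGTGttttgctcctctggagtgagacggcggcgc
Irs2, chr8:11008938-11009003: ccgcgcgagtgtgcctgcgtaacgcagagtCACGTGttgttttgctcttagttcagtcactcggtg
Of 32851 windows of 250 bases before an annotated start, 6.02% hold CACGTG on either strand. The motif was picked after these sequences had been read, and a match is only a description. RefSeq windows were found for 6 members; those of Slc2a1, Akt1, Akt2 and Tbc1d4 did not hold CACGTG, and none was found for Insr, Trarg1 and Slc2a4.

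The kinase genes Akt1 and Akt2 moved in opposite directions. Akt2 (ENSMUSG00000004056, chromosome 7, 27591552 to 27640826, plus strand), the form most tied to glucose uptake in mouse fat, was at 215, 224 and 200.2 CPM in knockout cultures and 117, 131 and 131 CPM in wild-type libraries. The knockout libraries were all higher, with a log2 fold change of 0.76 ± 0.09 (SE) and an edgeR adjusted p of 4.6e-05. Akt1 (ENSMUSG00000001729, chromosome 12, 112653821 to 112674884, minus strand), known for its role in growth and survival, was at 161, 176 and 161 CPM in knockout cultures and 235, 206 and 219 CPM in wild-type libraries. The knockout libraries were all lower, with a log2 fold change of -0.41 ± 0.09 (SE), a 95% interval from -0.60 to -0.21 and an edgeR adjusted p of 0.00327.

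The ratio of Akt2 to Akt1 per kilobase was 0.767, 0.733 and 0.716 in knockout cultures and 0.286, 0.365 and 0.344 in wild-type libraries. Every knockout library lay above every wild-type library, and the ratio was 2.24-fold higher in knockout cultures. The exact 2-sided permutation test gave p = 0.1, adjusted p = 0.15 over the 3 pairs, where 0.1 is the smallest p that 3 against 3 libraries allow. Akt1 remained the more abundant of both per kilobase in each library, also with the longest transcript as the length. A processed copy, Akt2-ps, had at most 28 counts in a library, and reads shared among Akt genes are a limit of these counts.

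**Figure D2:**
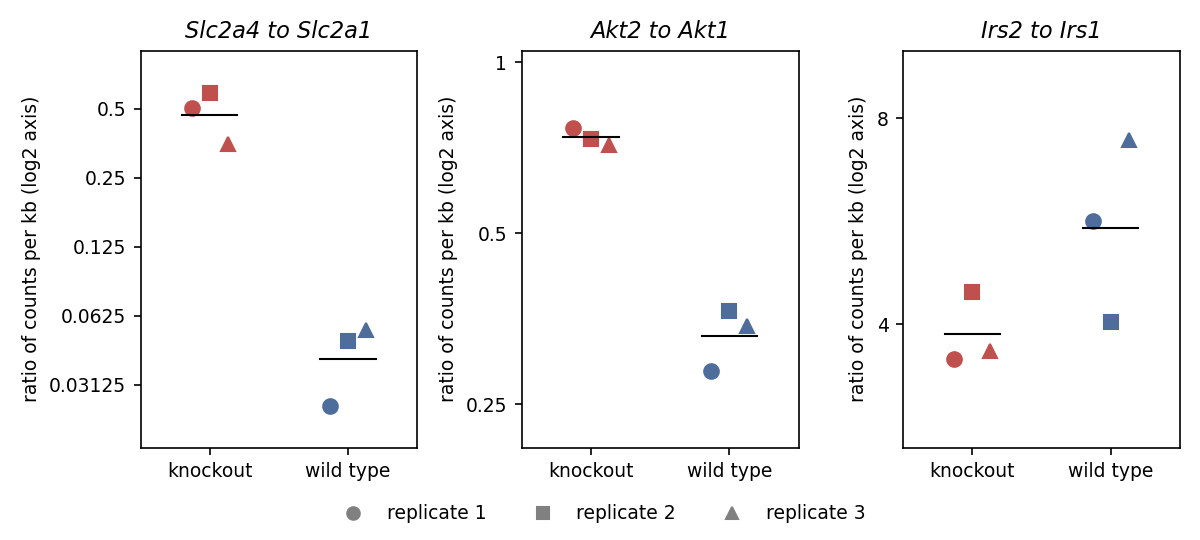
Ratio of counts per kilobase of exon between paired members in every library, on a log2 axis that differs by panel, with knockout left of wild type; points are libraries and lines are geometric means. The Slc2a4 to Slc2a1 and Akt2 to Akt1 ratios separate the genotypes, and the Irs2 to Irs1 ratio overlaps.

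The genes of GLUT4 storage and release showed the largest differences. Tbc1d4 (ENSMUSG00000033083, chromosome 14, 101442360 to 101609191, minus strand), the Rab brake also called AS160, was at 68.1, 63.4 and 56.2 CPM in knockout cultures and 6.11, 10.3 and 13.1 CPM in wild-type libraries. There was no overlap, and the knockout level was 6.36-fold higher, with a 95% interval from 4.44 to 9.09. The log2 fold change was 2.67 ± 0.23 (SE), with an edgeR adjusted p of 2.9e-05.

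Trarg1 (ENSMUSG00000046275, chromosome 11, 76679808 to 76698664, plus strand) encodes a membrane protein of GLUT4 vesicles that supports their traffic in mouse fat cells. It was at 175, 177 and 185 CPM in knockout cultures and 35.5, 54.6 and 60.4 CPM in wild-type libraries. The knockout libraries were close to each other and all above wild type. The log2 fold change was 1.83 ± 0.17 (SE), a 3.57-fold difference, with an edgeR adjusted p of 2.2e-05.

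Slc2a4 (ENSMUSG00000018566, chromosome 11, 69942539 to 69948188, minus strand) had 2319, 2415 and 1870 counts in knockout cultures and 97, 191 and 231 counts in wild-type libraries. That is 127, 137 and 91.1 CPM in knockout cultures and 5.49, 11.8 and 13.2 CPM in wild-type cultures. The lowest knockout library, replicate 3, was still far above the highest wild-type library. The log2 fold change of 3.55 ± 0.32 (SE), with an edgeR adjusted p of 0.000185, was an 11.7-fold difference with a 95% interval from 6.82 to 20.02. Replicate 3 was also the knockout library with the most macrophage marker RNA and the lowest sum of mature fat cell markers, 17393 CPM. The log2 fold change of Slc2a4 was 3.71 without this library, and a link to either marker sum was not tested.

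Slc2a1 (ENSMUSG00000028645, chromosome 4, 119108711 to 119137983, plus strand), the basal transporter gene, was at 255, 235 and 261 CPM in knockout cultures and 219.6, 245 and 247 CPM in wild-type libraries. The groups overlapped. Its log2 fold change was 0.08 ± 0.09 (SE), with an edgeR adjusted p of 0.506. The 95% interval ran from -0.12 to 0.28, so a fold between 0.921 and 1.22 is compatible with these libraries.

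The ratio of Slc2a4 to Slc2a1 per kilobase was 0.503, 0.588 and 0.351 in knockout cultures and 0.0252, 0.0486 and 0.0540 in wild-type libraries. Put as a share of their sum, Slc2a4 made up 26.0% to 37.02% in knockout cultures and 2.46% to 5.12% in wild-type libraries. The ratio was 11.6-fold higher in knockout cultures, with all libraries separated (exact 2-sided permutation p = 0.1, the smallest allowed, adjusted p = 0.15 over 3 pairs). Slc2a1 nonetheless stayed the more abundant transporter RNA in every library.

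**Figure D3:**
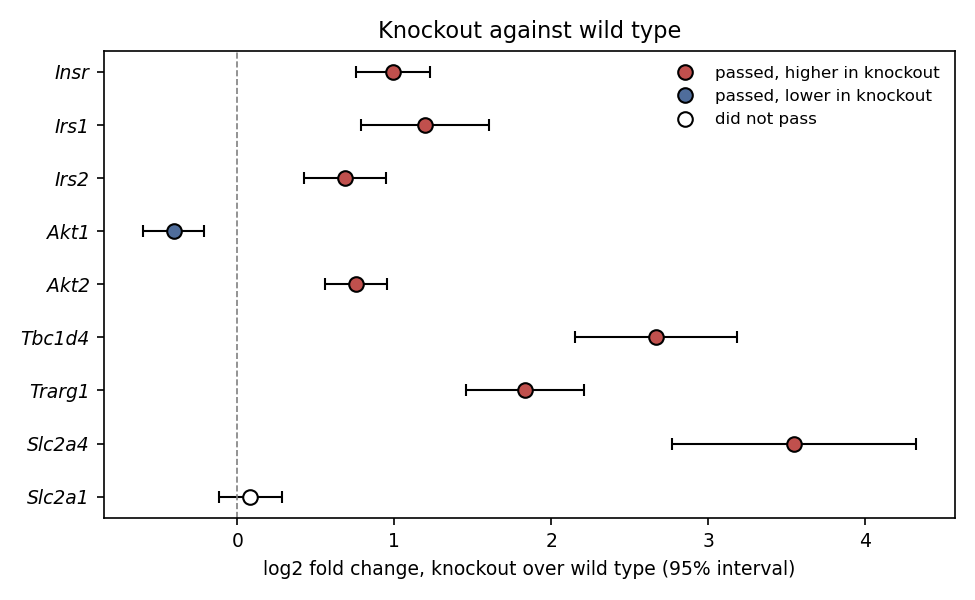
Log2 fold change, knockout over wild type, of the 9 genes with its 95% interval; filled points passed an adjusted p of 0.05 in edgeR and the open point did not. Slc2a4 (3.55) and Tbc1d4 (2.67) lie farthest to the right, Akt1 (-0.41) lies left of 0, and the interval of Slc2a1 spans 0.

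Read together, 8 of the 9 genes had knockout libraries wholly above or wholly below the wild-type libraries, where 55.2% of all tested genes did. A change of at least 2-fold was called for 4 members (Irs1, Tbc1d4, Trarg1 and Slc2a4), against 15.6% of all tested genes. Insr was just under that size, at 1.99-fold. Slc2a4 stood at percentile 99.7 and Tbc1d4 at percentile 99.1 of the log2 fold changes of all tested genes, and Akt1 at percentile 21.5. Earlier results were known when the members were chosen, so these contrasts with all genes are descriptions only.

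Levels were ordered within each genotype per kilobase of exon, as CPM per kilobase. In knockout the order was Slc2a1 (71.5 ± 3.90), Trarg1 (54.2 ± 1.53), Akt1 (40.5 ± 2.10), Slc2a4 (34.1 ± 6.99), Akt2 (29.9 ± 1.72), Insr (13.7 ± 1.26), Irs2 (10.5 ± 0.601), Tbc1d4 (8.15 ± 0.779) and Irs1 (2.73 ± 0.421). Neighbours in it did not overlap, except Slc2a4 with Akt1 and with Akt2. In wild type the order was Slc2a1 (67.6 ± 4.30), Akt1 (53.7 ± 3.55), Akt2 (17.7 ± 1.14), Trarg1 (15.2 ± 3.94), Insr (6.88 ± 0.776), Irs2 (6.53 ± 1.16), Slc2a4 (2.92 ± 1.18), Tbc1d4 (1.28 ± 0.458) and Irs1 (1.19 ± 0.326). There Akt2 overlapped Trarg1, Insr overlapped Irs2, and Slc2a4, Tbc1d4 and Irs1 overlapped each neighbour in turn. The place of Akt1 depends on the length used. With the longest transcript it stood at 61.7 CPM per kilobase, above Trarg1 at 54.2, in knockout cultures, and at 81.8, above Slc2a1 at 72.7, in wild-type cultures; Akt2, at 46.9, then also stood above Slc2a4, at 37.1, in knockout cultures.

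The members also varied within a genotype. Among the wild-type libraries, replicate 1 had the lowest value for 8 of the 9 genes and the highest for Akt1. That library also had the lowest sum of mature fat cell markers, 3927 CPM, against 5666 and 6064 CPM in wild-type replicates 2 and 3. Without it the log2 fold changes of Slc2a4, Tbc1d4 and Trarg1 were 3.24, 2.41 and 1.63, and each still passed. Knockout libraries showed no such single extreme, since replicates 2 and 3 each had the lowest value for 4 members.

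All 12 mature fat cell markers were higher in knockout cultures, with a median log2 fold change of 2.27, and the part that this, or the other marker sums below, plays in the members' differences was not tested. Of 12 progenitor and fibroblast markers 9 were lower and 0 higher, and their sum was 18555 to 19837 CPM in knockout cultures and 39218 to 42568 CPM in wild-type cultures. Of 12 macrophage markers 9 were higher and 0 lower. Over the 17 alternative settings 7 to 11 were higher, with C1qb lost in 3 settings, C1qa in 2 and C1qc in 1. The called share was 75.0% for the macrophage list and for the progenitor and fibroblast list, and 44.3% over all tested genes. Endothelial and mural markers summed to 66.8 to 93.6 CPM in knockout cultures and 42.1 to 42.8 CPM in wild-type cultures. Of 9 tested, 2 were higher and 1 lower, a called share of 33.3%, below the 44.3% of all tested genes. Of these calls, that for Tek (higher) was lost in 8 of 17 alternative settings and that for Rgs5 (lower) in 4. For skeletal muscle, another tissue rich in GLUT4, 11 markers summed to 10.2 to 12.8 CPM in knockout cultures and 20.5 to 37.6 CPM in wild-type cultures. Of these, 7 were not tested, and 1 of the 4 tested was lower, a called share of 25.0%. Myod1 and Myog were at 0 in every library.

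Set against the summed fat cell markers, the 9 genes fell into different patterns, described here without a test and chosen after the values had been seen. That sum is dominated by Fabp4 and Lpl. Per 1000 CPM of markers, Slc2a4 was at 5.91 ± 0.702 CPM in knockout cultures and 1.89 ± 0.426 in wild-type cultures, and Tbc1d4 at 3.16 ± 0.427 against 1.84 ± 0.302. Relative to this sum both were higher in every knockout library. Of the 12 single markers, 1 (Cfd, log2 fold change 4.67) had a larger log2 fold change than Slc2a4, and the same 1 had a larger one than Tbc1d4. Trarg1 was at 9.09 ± 1.53 in knockout cultures and 9.55 ± 0.464 in wild-type cultures, with overlap, while 9 of the 12 single markers had a larger log2 fold change than Trarg1. Insr (9.60 ± 2.14 against 18.4 ± 2.40), Irs2 (3.38 ± 0.675 against 7.998 ± 0.904) and Akt2 (10.8 ± 1.04 against 24.8 ± 4.34) were lower relative to the markers in every knockout library, although their CPM was higher. Slc2a1 and Akt1 were lower in the same sense, and Irs1 overlapped. The marker sum was itself higher in knockout cultures, so a gene that rose less than the sum fell relative to it. Trarg1, which overlapped, stood at percentile 96.7 of the log2 fold changes of all tested genes. Most tested genes thus rose less than Trarg1, and a fall relative to the markers is not particular to these members. The share of all genes with such a fall was not computed.

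**Figure D4:**
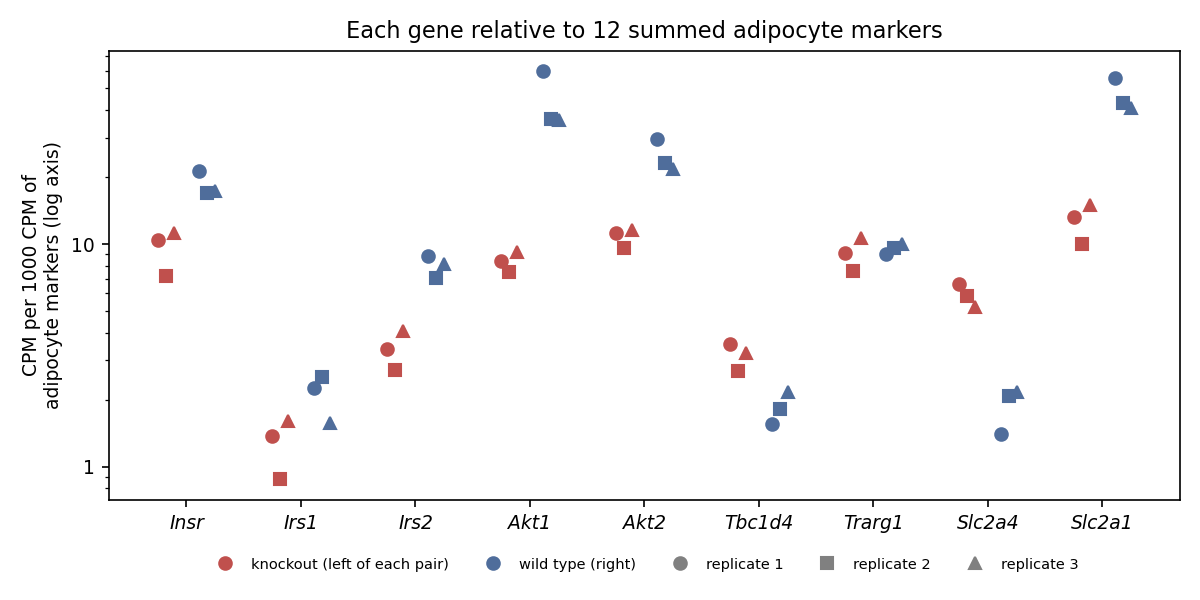
CPM of each gene per 1000 CPM of 12 summed mature fat cell markers in every library, on a log axis, with knockout left and wild type right for each gene and 1 marker shape per replicate number. Slc2a4 and Tbc1d4 are higher in all knockout libraries, Trarg1 and Irs1 overlap, and the other genes are lower in all knockout libraries.

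Other genes of the pathway moved in both directions. Of 18 tested partners and adaptors of the receptor, 6 were higher and 5 lower, with a median log2 fold change of -0.03. The called share was 61.1%, and 44.3% of all tested genes were called. Over the 17 alternative settings 5 or 6 were higher and 4 to 6 lower, with Gab1 lost in 4 settings and Sh2b1 in 3. The higher genes included Irs3, a substrate gene active in rodents, at 13.4 ± 2.72 CPM in knockout cultures and 3.96 ± 0.383 in wild-type cultures. The adaptor gene Sh2b2, also called APS, was at 60.9 ± 8.62 against 14.5 ± 4.35 CPM. The related receptor gene Igf1r fell by 0.65 on the log2 scale, to 79.8 ± 9.91 CPM in knockout cultures against 126 ± 3.90 in wild-type cultures, and Dok1 fell by 0.87. Shc1 and Rhoq, the most abundant that did not pass, had log2 fold changes of -0.16 and -0.12. Irs4 had 0 counts in every library.

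Among 15 genes of phosphoinositide 3-kinase, PDK1 and mTORC2, 5 were higher and 3 lower (median log2 fold change 0.07). The called share was 53.3%, against 44.3% of all tested genes. With upper-quartile factors, or without knockout replicate 3, the counts were 5 and 5. The regulatory subunit gene Pik3r1 was at 267 ± 23.4 CPM in knockout cultures and 141 ± 25.5 in wild-type cultures, and the catalytic subunit gene Pik3cb at 21.3 ± 2.74 against 8.85 ± 0.434 CPM. Mtor, the kinase of both mTOR complexes, was at 119 ± 9.29 against 60.8 ± 4.48 CPM, and Prr5, an mTORC2 subunit gene, rose by 1.12 on the log2 scale. Hsp90aa1 and Pdpk1 did not pass, at -0.20 and 0.22. In other settings, Hsp90aa1 passed in limma-voom (adjusted p 0.015) and with upper-quartile factors (0.041). Pdpk1 passed in limma-voom (0.035) and without knockout replicate 2 (0.012).

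Of 20 tested genes listed as inhibitors, 5 were higher and 6 lower (median log2 fold change 0.14). Calls made up 55.0% of the list and 44.3% of all tested genes. Over the 17 alternative settings 3 to 5 were higher and 5 or 6 lower, with Ptpn1 lost in 8 settings, Trib3 in 4, Rps6kb1 in 2 and Inppl1 in 1. Only 3 were higher without knockout replicate 1, and likewise without wild-type replicate 1, 2 or 3. The largest difference was Enpp1, a membrane enzyme gene whose product can bind and restrain the receptor, at 3.77 ± 0.556 CPM in knockout cultures and 30.1 ± 7.87 in wild-type cultures, which is a log2 fold change of -2.99. The phosphatase gene Ptprf (-1.65), the pseudokinase gene Trib2 (-0.99) and the adaptor gene Grb14 (-0.83) also fell. Trib1, a relative of Trib2, rose by 0.66. Grb10, the most abundant of the list, did not pass, at 357 ± 35.6 against 377 ± 42.9 CPM, nor did Socs3.

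Of 32 tested genes of GLUT4 vesicle traffic, 7 were higher, 1 was lower and 24 did not pass (median log2 fold change 0.01). The called share was 25.0%, and 44.3% of all tested genes were called. These counts depended on the setting, with 5 higher and 5 lower under upper-quartile factors and 8 higher and 7 lower in limma-voom. The calls for Stx4a and Vamp8, both higher, were lost in 7 and 5 of 17 settings. Sort1, the sortilin gene needed to form GLUT4 vesicles, was at 264 ± 19.1 CPM in knockout cultures and 79.3 ± 24.1 in wild-type cultures. Ralgapa2, a subunit gene of an AKT target that restrains Ral proteins, was at 90.2 ± 6.16 against 22.8 ± 4.75 CPM. Exoc6, of the exocyst tethering complex, and Dennd4c, an activator of the vesicle protein RAB10, had log2 fold changes of 1.78 and 0.48, and Exoc4, also of the exocyst, fell by 0.73. The cargo receptor gene Lrp1 and the clathrin gene Cltc had log2 fold changes of -0.23 and -0.24 and did not pass. Cltc passed in DESeq2 (adjusted p 0.038), limma-voom (0.010), with upper-quartile factors (0.030) and without knockout replicate 3 (0.028).

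Of 9 other tested glucose transporter genes, 2 were higher and 2 lower (median log2 fold change -0.17). This called share, 44.4%, was close to the 44.3% of all tested genes. Slc2a13, a proton and inositol carrier gene, was at 12.1 ± 1.24 CPM in knockout cultures and 23.5 ± 1.06 in wild-type cultures, and Slc2a10 at 8.97 ± 2.05 against 18.9 ± 1.66 CPM. Slc2a8 and Slc2a9 had log2 fold changes of 0.33 and 0.60, at an edgeR adjusted p of 0.025 and 0.023. Neither call held in every leave-one-out fit. That for Slc2a8 was lost without knockout replicate 2 (adjusted p 0.070) or 3 (0.053) or wild-type replicate 1 (0.083) or 2 (0.073). For Slc2a9 the adjusted p was 0.053 when knockout replicate 2 was left out, and 0.094 or 0.052 when wild-type replicate 1 or 3 was. Slc2a3, the most abundant that was not called, was at 37.1 ± 0.364 against 31.5 ± 6.21 CPM, and Slc2a6 at 4.16 ± 0.718 against 4.68 ± 0.539 CPM. Neither passed in the reported fit, but Slc2a3 passed in limma-voom (adjusted p 0.039) and without wild-type replicate 3 (0.011).

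Among 15 targets and outputs of AKT, 7 were higher and 1 lower (median log2 fold change 0.18). Calls made up 53.3% of this list and 44.3% of all tested genes. The single lower gene, Mdm2, had an edgeR adjusted p of 0.049 and lost its call in 9 of 17 settings, among them the replicate block (0.068) and every leave-one-out fit but that without knockout replicate 3. Pde3b, the phosphodiesterase gene through which insulin restrains lipolysis, was at 317 ± 37.4 CPM in knockout cultures and 55.4 ± 13.8 in wild-type cultures, which is a log2 fold change of 2.52. The hexokinase gene Hk2, whose product traps glucose after uptake, was at 184 ± 22.8 against 83.0 ± 7.53 CPM, and the transcription factor gene Foxo1 at 61.1 ± 4.95 against 24.7 ± 4.54 CPM. Log2 fold changes were 0.52 for the glycogen synthase gene Gys1 and 0.48 for the kinase gene Gsk3a. Gsk3b, at 127 ± 9.23 against 126 ± 10.1 CPM, and Foxo3 did not pass.

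**Figure D5:**
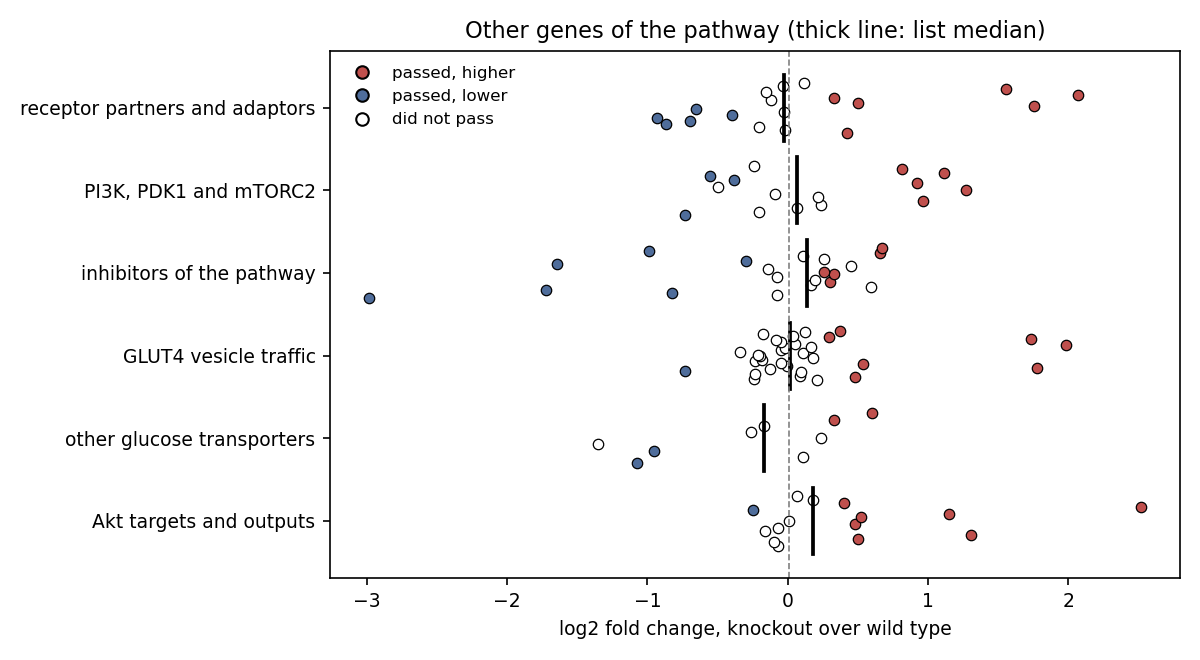
Log2 fold change, knockout over wild type, of every tested gene in 6 lists of other pathway genes; filled points passed in edgeR, open points did not, thick lines are list medians and the dashed line is the median of all tested genes. List medians lie between -0.17 and 0.18, while single genes run from Enpp1 (-2.99) to Pde3b (2.52).

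Tested genes with a mean of at least 5 CPM, leaving out those with a predicted-model or clone-type symbol, numbered 10459. Among them, the genes with the profile most like a member were found by Pearson's r of log2 CPM over the 6 libraries, as a description. For Slc2a4 these were Nr1h3, Gprc5c, Lpin1, Pdk2 and Pde3b, all with r of 0.999. For Insr they were Lifr, Pla2g6, Fam102b, Uhrf1bp1l and Cpeb4 (r of 0.997 to 0.998), and for Akt1 they were Pamr1, Des, Atg16l2, Haus8 and Ilf2 (0.992 to 0.997). All 6 libraries share the split by genotype, which enters every such r.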

How the data were processed

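The authors deposited raw counts per Ensembl gene, whole numbers with no normalization, for 6 libraries. RNA was taken on day 4, depleted of ribosomal RNA and read as 150 bp pairs, per the labels' protocols. STAR and featureCounts with mm10 and GRCm38 are named in the submitters' processing notes; the sources used here do not give versions, annotation, strand setting or multi-mapping rules. Symbols, positions and exon lengths came from GENCODE M21 on GRCm38, which held 53706 of 53801 identifiers.

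Counts were fitted with edgeR 4.0.16 in R 4.3.3: filterByExpr (minimum count 10, total 15), TMM factors, the legacy robust quasi-likelihood F test with genotype as the single term, 2-sided, Benjamini-Hochberg adjusted over 14816 genes. Ratios between members used counts per kilobase of merged exons. Floors cover counting error only. P-values refer to the spread between these replicates and do not cover culture or preparation that coincided with genotype.

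Members and gene lists were chosen with earlier results of these data known. Named genes were all members, then from each list up to 5 called genes with the smallest adjusted p and the 2 most abundant that were not called. Some genes that this rule picked are not reported here. Outside this rule, Irs4, Akt2-ps, single markers and list genes whose calls were lost were chosen after their values were seen. For the profiles most like a member, 0.5 was added to each CPM before taking logs. Alternatives were other scalings, DESeq2 1.42.0, limma-voom (limma 3.58.1), other filters, a replicate block, the L0 or L1 suffix of library names as a covariate, and each library left out.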

Additional observations from a re-analysis of the deposited data

How the results depend on the processing

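Under all 17 alternatives fitted, 7 members were higher and 1 was lower, the same genes each time, and Slc2a1 passed in none. Leaving out each library in turn, log2 fold changes ran from 3.24 to 3.79 for Slc2a4, from 2.41 to 2.93 for Tbc1d4, from 1.06 to 1.44 for Irs1, from -0.45 to -0.36 for Akt1 and from 0.03 to 0.13 for Slc2a1. Among all tested genes the counts stayed within 1.5 times those of the reported fit, from 2535 to 3943 in either direction. Upper-quartile factors shifted all log2 fold changes by a median of -0.05 and gave 2989 higher and 3688 lower genes. The log2 difference in ratio, knockout minus wild type, ran from 3.20 to 3.75 for Slc2a4 to Slc2a1, from 1.06 to 1.24 for Akt2 to Akt1 and from -0.75 to -0.30 for Irs2 to Irs1. Deviations from the genotype mean correlated at -0.13, 0.01 and -0.14 in same-numbered libraries and at -0.05 to 0.15 in differently numbered ones. With 3 libraries per genotype this cannot tell whether the numbers pair them. With the replicate block 3136 genes were higher and 2993 lower, and the calls of the members were unchanged. Depth was lowest for Slc2a4 and Tbc1d4 in wild-type libraries (97 to 231 and 108 to 229 counts) and for Irs1 (157 to 232).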
